A study of Homo sapiens with 4 samples.

Results

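Nucleotide synthesis enzymes are described here in Jurkat cells, an established line of human T-cell acute lymphoblastic leukaemia, with and without knockdown of BDH1. The genes were taken from a fixed list of names, matched to the symbols of the table with no threshold on a measured value. Of 34 listed genes, 30 were found by symbol among the 25122 genes of the deposited table. They comprise 12 genes of purine synthesis and salvage, 6 of pyrimidine synthesis and salvage, 10 that make, clean up or remove deoxynucleotides, and 2 synthetases of phosphoribosyl pyrophosphate (PRPP), the sugar donor that purines and pyrimidines share. The listed genes ADSL, CTPS2, NME1 and NME2 were not analysed here.

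Messenger RNA was sequenced in 4 libraries, all from Jurkat cells labelled wild type. In 2 of them the cells carried a control short hairpin RNA (shcontrol), and in 2 a hairpin against BDH1 (shBDH1), a ketone body dehydrogenase of mitochondria. The series was set up to ask whether MYC and NKX3.1 act downstream of BDH1; its description also speaks of cells with restored MYC, which were not analysed here. The labels do not say how many hairpin sequences were used, when cells were collected, or whether 2 libraries of 1 group stem from separate cultures. All p-values therefore rest on library-to-library spread, and this spread may be technical.

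Cells build purines stepwise on PRPP until inosine monophosphate (IMP) is complete, and IMP is then turned into AMP or GMP. Pyrimidines are made the other way round: the ring is closed first and joined to PRPP afterwards, which gives UMP and then CTP. Ribonucleotide reductase turns the ribonucleotides into deoxynucleotides for DNA, and thymidylate synthase makes the thymine nucleotide that DNA needs. Salvage enzymes recover bases and nucleosides. Many of these genes are known MYC targets, and proliferating T-lineage leukaemia cells depend on this supply.

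Depth was close between libraries, from 28681511 to 29453383 reads in genes. The targeted BDH1 mRNA had 1725 and 1911 normalized counts in shcontrol and 1221 and 1412 in shBDH1, lower in both libraries and still well detected (log2 fold change -0.47, SE 0.078, limma adjusted p = 1.5e-05). MYC fell from 14683 and 14804 to 7453 and 7368 (log2 fold change -0.99, limma adjusted p = 2.7e-18). All 13 T cell markers found in the table were detected at a mean of at least 10, and their summed level was 77938 to 77988 in shcontrol and 91930 to 93637 in shBDH1. Of these, 7 rose (53.8%) and CD3G fell (7.69%). Over all genes tested 20.3% rose and 20.8% fell, and of those with a mean of at least 1000, 26.2% and 34.7%. Of 20 markers of other cell types, 12 were in the table and 8 reached a mean of 10. Their summed level was 2524 to 2752 in shcontrol and 2638 to 2853 in shBDH1, and LYZ, a defining myeloid gene, was at 0 in 3 of 4 libraries. CD79A (2.15), CD33 (2.32), NCAM1 (1.09) and COL1A1 (0.44) rose on the log2 scale and PECAM1 (-0.55) fell, and their part in the results below was not tested. In bulk RNA, fewer cells of a kind and less RNA per cell cannot be told apart.

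Of the 30 genes 11 fell and 7 rose in shBDH1, and the fitted changes ran from -0.54 to 0.59 on the log2 scale, all under 2-fold. All 30 entered the test, which was limma on log2(normalized count + 1) with Benjamini-Hochberg adjustment over 19301 genes and a threshold of 0.05. Over all genes tested 41.1% were called, 20.8% lower and 20.3% higher. Among the genes with a mean of at least 1000, where 29 of the 30 lie and small changes are easier to call, 60.9% were called, 34.7% lower and 26.2% higher. The share of 60.0% called among the 30 is therefore near that of genes of similar level and is not in itself a result about this pathway. Their median log2 fold change was -0.06, against -0.01 over all genes tested. By place in the pathway, 7 of 12 purine genes fell and 1 rose, with a median of -0.16. Among the 6 pyrimidine genes 1 fell and 2 rose, with a median of -0.10. Among the 10 deoxynucleotide genes 2 fell and 4 rose, with a median of 0.11. These classes were compared by their counts and medians and the difference between them was not tested.

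**Figure D1:**
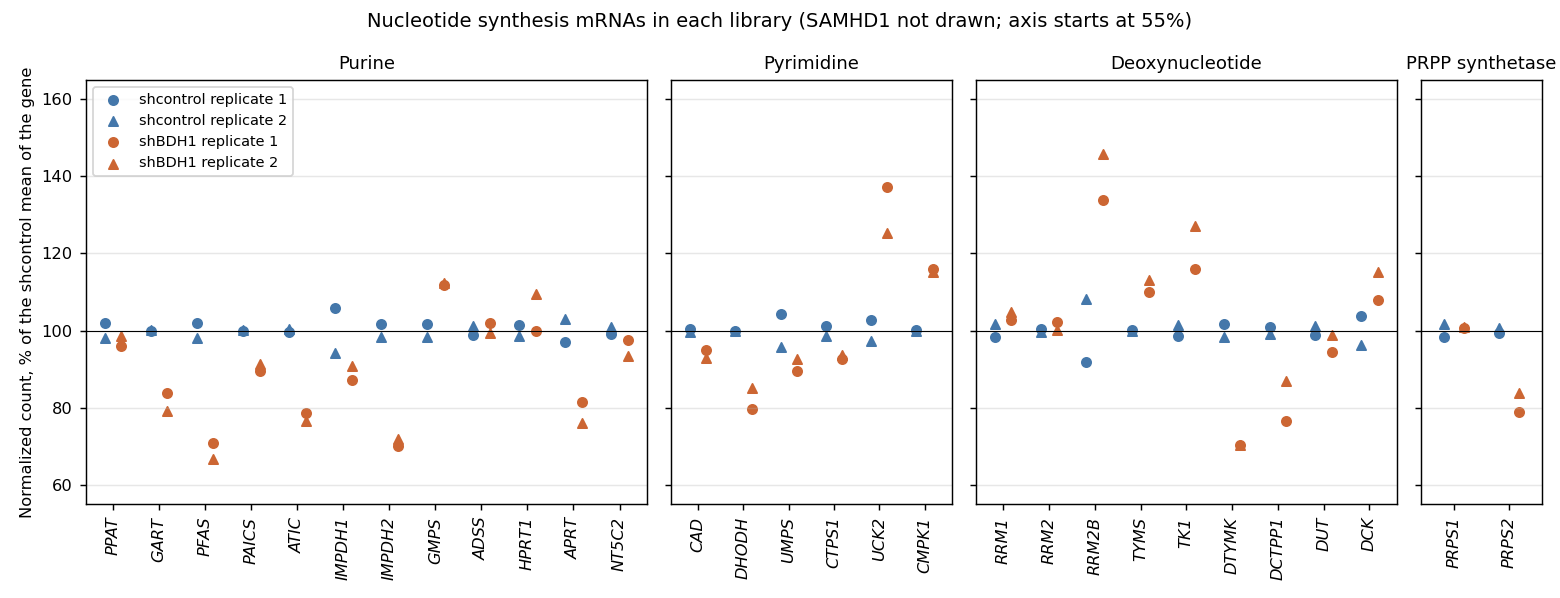
Normalized count of each gene in each library, as a percentage of the gene's shcontrol mean (vertical axis, in percent, starting at 55%), by class of enzyme; blue points are shcontrol, orange points shBDH1, circles replicate 1 and triangles replicate 2, and SAMHD1 is not drawn. The shBDH1 points of PFAS, IMPDH2 and DTYMK lie lowest and those of RRM2B and UCK2 highest.

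Of the 5 measured enzymes that build the purine ring, 4 fell in shBDH1, and the one not called was that of the entry step. Over all genes tested 20.8% fell, and 34.7% of those with a mean of at least 1000, where all 5 lie. PPAT, the amidotransferase that commits PRPP to purine synthesis, had 2739 and 2641 normalized counts in shcontrol and 2581 and 2653 in shBDH1, so the groups overlapped (log2 fold change -0.04, 95% interval -0.16 to 0.08). GART, a single protein that carries out several of the early steps, had 7320 and 7337 against 6134 and 5802 and fell by 0.30 on the log2 scale (SE 0.044, limma adjusted p = 2.7e-06). PFAS, which adds the next nitrogen from glutamine, had 6155 and 5926 against 4280 and 4035. Among the 30 genes it fell most (-0.54 on the log2 scale, SE 0.048, limma adjusted p = 3.0e-10, a change of -31.2%). PAICS, a bifunctional enzyme of the middle steps, had the highest counts of the ring enzymes and the smallest change of the 4, from 14234 and 14297 to 12786 and 13029 (log2 fold change -0.14, limma adjusted p = 0.0014). ATIC, which closes the ring to IMP, fell from 4237 and 4271 to 3347 and 3254 (log2 fold change -0.37, limma adjusted p = 1.0e-06). For GART, PFAS, PAICS and ATIC both shBDH1 libraries lay below both shcontrol libraries. This was also so for NT5C2, CAD, UMPS and CTPS1, which were not called. The share of all genes separated in this way was not counted, so the separation adds nothing to the calls. Summed over the 5 measured ring enzymes, the normalized count was 34685 and 34472 in shcontrol, against 29128 and 28773 after knockdown, a change of -16.3%.

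PPAT and PAICS stand head to head on chromosome 4 (hg38): PPAT from 56393362 to 56435615 on the minus strand and PAICS from 56435741 to 56464579 on the plus strand. They are read outwards from a stretch of 125 bases that lies outside both genes, shown because this one stretch precedes a gene that fell and one that was not called. It is given for the plus strand of GRCh38, chr4:56435616-56435740, as RefSeq's promoter sequence has it, and 76.0% of its bases are G or C.
PPAT and PAICS: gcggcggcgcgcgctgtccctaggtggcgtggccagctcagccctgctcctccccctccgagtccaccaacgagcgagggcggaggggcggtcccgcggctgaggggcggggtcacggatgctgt
The log2 ratio of PAICS to PPAT was 2.38 and 2.44 in shcontrol, against 2.31 and 2.30 in shBDH1. It differed by -0.10 between the groups, and with 2 libraries in each the exact two-sided permutation test can give no p below 0.333, which is the value obtained.

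Beyond IMP, genes of the branch to GMP moved in both directions. IMPDH2, the main isoform of IMP dehydrogenase in proliferating cells and the rate-limiting enzyme of guanine nucleotide synthesis, had 8337 and 8075 normalized counts in shcontrol and 5750 and 5897 in shBDH1. It fell by 0.49 on the log2 scale (SE 0.043, limma adjusted p = 1.5e-10), and both shBDH1 libraries lay far below both shcontrol libraries. IMPDH1, its constitutive paralogue, had 3170 and 2817 against 2606 and 2716, a smaller change with no overlap between groups (log2 fold change -0.17, limma adjusted p = 0.028). Its call was lost without shcontrol replicate 1 (-0.08, limma adjusted p = 0.46) and without shBDH1 replicate 1 (-0.14, limma adjusted p = 0.13). GMPS, which makes GMP from the product of IMP dehydrogenase, went the other way, from 5318 and 5154 to 5853 and 5883 (log2 fold change 0.16, SE 0.045, limma adjusted p = 0.0041). It was the one purine gene that rose, and its call was lost without shcontrol replicate 2 (0.14, limma adjusted p = 0.082). ADSS, adenylosuccinate synthase, opens the branch to AMP and had 1889 and 1937 against 1949 and 1899, so its groups overlapped (log2 fold change 0.01, 95% interval -0.12 to 0.14).

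Of the purine salvage enzymes, APRT, which recovers adenine, fell from 1917 and 2037 normalized counts to 1612 and 1501 (log2 fold change -0.34, SE 0.069, limma adjusted p = 1.7e-04). HPRT1, which recovers hypoxanthine and guanine, had 2136 and 2080 in shcontrol and 2104 and 2305 in shBDH1, with overlapping groups and an interval of -0.07 to 0.19. NT5C2, a cytosolic nucleotidase that dephosphorylates IMP and GMP, had 3007 and 3058 against 2955 and 2835, without a call (log2 fold change -0.07, limma adjusted p = 0.36). Of the 2 PRPP synthetases, PRPS2 fell from 3310 and 3346 to 2622 and 2792 (log2 fold change -0.30, SE 0.056, limma adjusted p = 7.6e-05). PRPS1 had 3823 and 3962 against 3921 and 3933, within the shcontrol range (log2 fold change 0.01, 95% interval -0.09 to 0.12).

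Of the 6 pyrimidine genes, DHODH of the de novo route fell, the kinases UCK2 and CMPK1 rose, and CAD, UMPS and CTPS1 were not called. CAD, the trifunctional enzyme that starts the pathway, had 8554 and 8495 normalized counts in shcontrol and 8105 and 7919 in shBDH1, lower in both libraries but not called (log2 fold change -0.09, limma adjusted p = 0.077). Without shBDH1 replicate 1 it was called (-0.11, limma adjusted p = 0.046), which made 2 pyrimidine genes lower. DHODH, the mitochondrial dehydrogenase that links pyrimidine synthesis to the respiratory chain, fell from 1547 and 1548 to 1235 and 1319 (log2 fold change -0.28, SE 0.074, limma adjusted p = 0.0031). UMPS, which completes UMP, had 1717 and 1574 against 1474 and 1524 (log2 fold change -0.13, limma adjusted p = 0.14). CTPS1, the CTP synthase on which proliferating lymphocytes depend, had 5063 and 4934 against 4624 and 4684 (log2 fold change -0.10, limma adjusted p = 0.083).

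UCK2, the uridine-cytidine kinase that salvages pyrimidine nucleosides, rose from 4219 and 4004 normalized counts to 5643 and 5152 (log2 fold change 0.39, SE 0.051, limma adjusted p = 3.8e-07), 31.3% more. CMPK1, the kinase that turns UMP and CMP into their diphosphates, rose from 3076 and 3066 to 3563 and 3536 (log2 fold change 0.21, SE 0.053, limma adjusted p = 0.0021). For both genes the lower shBDH1 library lay above the higher shcontrol library. UCK2 shares 253 exonic bases with the opposite-strand transcript AL358115.1, whose log2 fold change was 0.48 at 23.3% of the level of UCK2, and 225 with TMCO1 (0.09). The strand setting of the counting is not known, so reads in these bases may be shared.

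Among the deoxynucleotide enzymes both subunits of the S phase ribonucleotide reductase were not called, and the alternative small subunit rose. RRM1, the large catalytic subunit, had 6446 and 6674 normalized counts in shcontrol and 6744 and 6876 in shBDH1 (log2 fold change 0.05, 95% interval -0.03 to 0.14). RRM2, the small subunit that cycling cells make in S phase, had 7747 and 7670 against 7883 and 7727, with overlapping groups (log2 fold change 0.02, 95% interval -0.07 to 0.10). RRM2B, the p53-inducible small subunit that serves DNA repair and mitochondrial DNA, had 1007 and 1189 against 1468 and 1599. It rose by 0.49 (SE 0.083, limma adjusted p = 2.3e-05), 39.7% more, and the lower shBDH1 library stood above the higher shcontrol library.

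The thymidylate steps moved apart. TYMS, thymidylate synthase, rose from 9643 and 9613 normalized counts to 10582 and 10898 (log2 fold change 0.16, SE 0.038, limma adjusted p = 0.0013). TK1, the S phase thymidine kinase, rose from 1321 and 1358 to 1554 and 1703 (log2 fold change 0.28, SE 0.073, limma adjusted p = 0.0028). DTYMK, the thymidylate kinase on which both routes to TTP converge, fell from 2573 and 2486 to 1779 and 1779, a change of -29.7% (log2 fold change -0.51, SE 0.062, limma adjusted p = 1.2e-07). DCK, the deoxycytidine kinase that also activates cytarabine and related drugs, had 2420 and 2247 against 2520 and 2689 (log2 fold change 0.16, limma adjusted p = 0.04). Without shBDH1 replicate 2 the calls of DCK (0.11, limma adjusted p = 0.23) and TK1 (0.21, limma adjusted p = 0.056) were lost, which left 2 deoxynucleotide genes higher instead of 4. Without shcontrol replicate 2 DCK was at 0.11 (limma adjusted p = 0.33).

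TYMS shares 967 exonic bases with ENOSF1 on the opposite strand (log2 fold change -0.02) and 183 with TYMSOS (0.20), so its value may hold reads of these genes. DCK shares 199 exonic bases with MOB1B on the same strand, which had 3705 normalized counts on average and a log2 fold change of 0.34.

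Of the enzymes that clean or drain the deoxynucleotide pool, DCTPP1, which hydrolyses dCTP and its modified forms, fell from 2108 and 2069 normalized counts to 1599 and 1813 (log2 fold change -0.29, SE 0.069, limma adjusted p = 9.9e-04). It shares 666 exonic bases with ZNF771 on the opposite strand, which had a log2 fold change of -0.33. DUT, the dUTPase that keeps uracil out of DNA, had 5730 and 5874 against 5480 and 5738, with overlapping groups (log2 fold change -0.05, 95% interval -0.14 to 0.04). SAMHD1, the triphosphohydrolase that degrades deoxynucleotides and limits the drug cytarabine, was barely detected: 11.3 and 20.4 normalized counts in shcontrol and 18.7 and 29.2 in shBDH1. At this depth a change could not be resolved (log2 fold change 0.59, 95% interval -0.65 to 1.82), and 1159 of its exonic bases are shared with TLDC2.

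Genes of S phase were read beside this class, since RRM2, TYMS and TK1 are transcribed with it. Of 21 tested S phase genes 5 rose (23.8%) and 6 fell (28.6%), with a median log2 fold change of 0.01. Over all genes tested 20.3% rose and 20.8% fell, and of those with a mean of at least 1000, 26.2% and 34.7%. The shares of the S phase genes lie between these and are no result about the list. CDC6, which licenses origins, rose (0.31), and the proliferation marker MKI67 fell (-0.24). The helicase subunits were split: MCM3 (-0.31) and MCM7 (-0.26) fell, MCM2 (0.11) and MCM4 (0.13) rose, and MCM5 (-0.01) and MCM6 (-0.09) were not called. The summed level of the 22 S phase genes was 135129 and 135394 in shcontrol, against 128526 and 130102 after knockdown, a change of -4.40%. The part of cell cycle phase in the deoxynucleotide values was not tested.

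**Figure D2:**
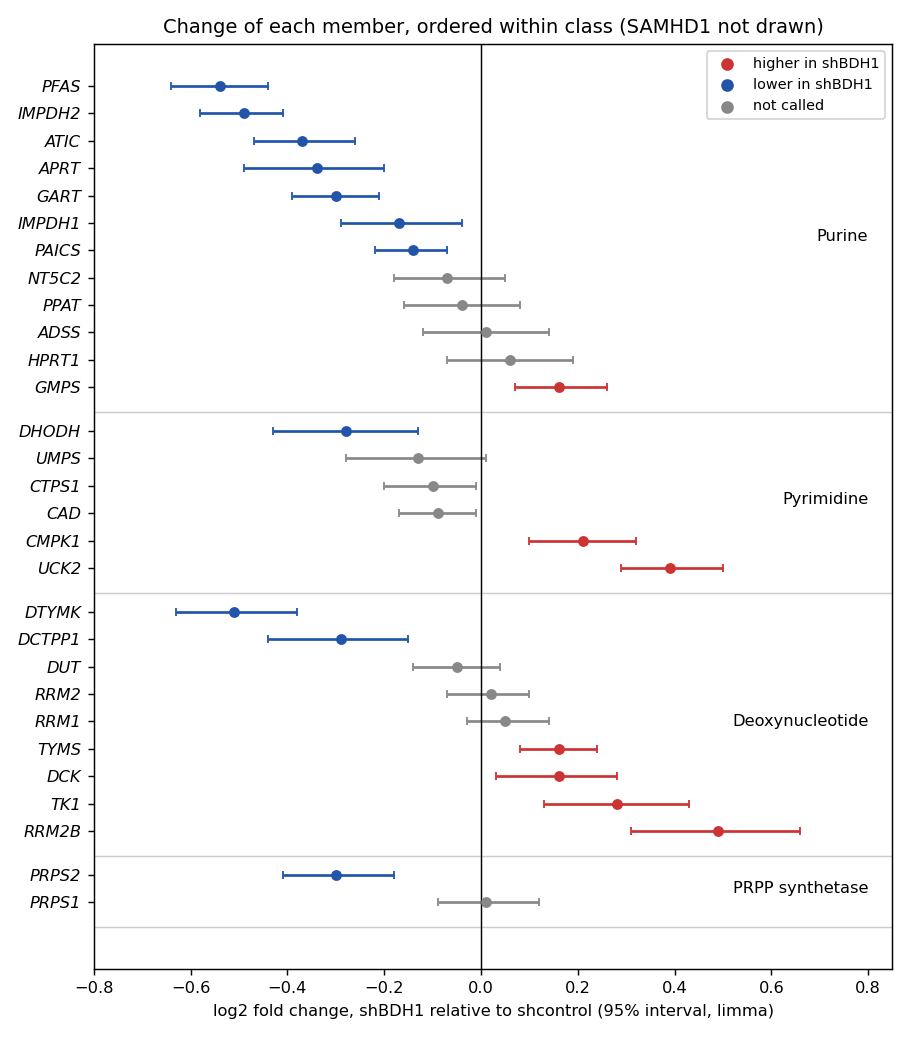
Log2 fold change of each gene, shBDH1 relative to shcontrol (horizontal axis), with its 95% interval from limma, ordered within each class; red points passed the test as higher, blue points as lower and grey points were not called, and SAMHD1 is not drawn. The purine panel lies mostly to the left of 0, from -0.54 for PFAS to 0.16 for GMPS, and the deoxynucleotide panel runs from -0.51 for DTYMK to 0.49 for RRM2B.

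Levels were compared between genes per length, as reads per kilobase of merged exons scaled to the library's total (RPKM). Merged exons include those of rare transcripts, so genes with long or many annotated exons come out low. In shcontrol TYMS was highest, at 133 and 132 RPKM, followed by IMPDH2 at 102 and 98.9 and PAICS at 64.3 and 64.6. DUT at 53.0 and 54.3, RRM1 at 52.4 and 54.3, and PRPS1 at 49.5 and 51.3 came next, with RRM2 at 49.4 and 49.0. DUT and RRM1 overlapped in these libraries and were not told apart by their spread. At the low end, DHODH stood at 7.59 and 7.60 RPKM, UMPS at 7.69 and 7.06, RRM2B at 6.16 and 7.28, and SAMHD1 at 0.0341 and 0.0617. UMPS overlapped with both DHODH and RRM2B. In shBDH1 the order at the top stayed TYMS (148 and 152), IMPDH2 (71.6 and 73.5) and PAICS (58.8 and 59.9), while RRM2B at 9.14 and 9.96 now stood above DHODH at 6.17 and 6.59 and UMPS at 6.72 and 6.95. Of the purine ring enzymes in shcontrol, GART was at 32.1 and 32.2, PFAS at 32.3 and 31.1 and ATIC at 36.6 and 36.9 RPKM, between PAICS above them and PPAT below at 17.1 and 16.5.

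For 3 pairs of paralogues that catalyse the same step, the ratio was lower in both shBDH1 libraries than in both shcontrol libraries. The IMPDH2 to IMPDH1 ratio of RPKM was 3.47 and 3.79 in shcontrol, against 2.91 and 2.87 in shBDH1. The PRPS2 to PRPS1 ratio was 0.824 and 0.803 in shcontrol and 0.636 and 0.676 in shBDH1. For RRM2 to RRM2B it was 8.02 and 6.73 in shcontrol and 5.60 and 5.04 in shBDH1. On the log2 scale of normalized counts the ratios differed between groups by -0.33, -0.31 and -0.47, in that order. In the first and second pair the numerator fell and in the third the denominator rose. The exact two-sided permutation test over the 4 libraries gave p = 0.333 for each pair, the smallest value that 2 libraries against 2 allow.

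**Figure D3:**
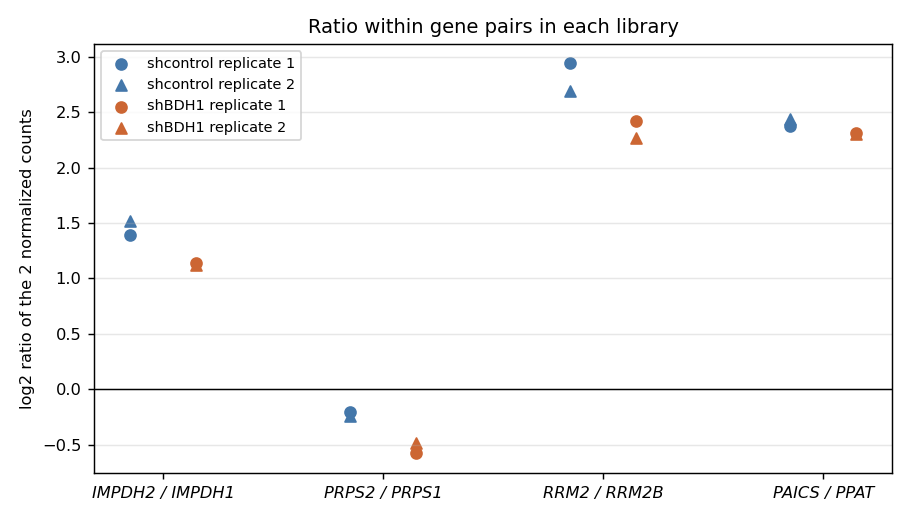
Log2 ratio of the 2 normalized counts of each gene pair in each library (vertical axis); blue points are shcontrol and orange points shBDH1, circles replicate 1 and triangles replicate 2. In each pair both shBDH1 libraries lie below both shcontrol libraries; the mean ratio of RRM2 to RRM2B went from 2.82 to 2.35.

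The promoters of the genes were searched for letters that factors of growth and S phase are known to bind. RefSeq's promoter windows, from 250 bases before to 50 after a transcript start (GRCh38.p14), were available for 28 of the 30 genes, ADSS under its newer symbol ADSS2. CACGTG, the E-box that MYC and other factors of its structural class bind, reads the same on both strands. It was present for 6 of 28 genes (21.4%), against 8.77% of 27305 genes with a window and 13.9% of the 5427 protein-coding genes with a mean of at least 1000 normalized counts. Of these 6 genes 4 fell (ATIC, PAICS, DHODH and DCTPP1), DCK rose and PPAT was not called. Among all genes with a mean of at least 1000, where these 6 lie, 34.7% fell. A link between these letters and the direction of change was not tested.

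The 30 bases around each match are shown in the direction of transcription of the named gene, with CACGTG in capitals. The site shared by PAICS and PPAT is shown in the direction of PAICS. The surroundings of the same letters can so be compared between genes that fell and DCK, which rose by 0.16 on the log2 scale. The call of DCK was lost with DESeq2 and without a filter on low values, so this contrast rests on 1 gene with an unsteady call. The ATIC sites lie 46 bases before the start (chr2:215312001-215312030, plus strand) and 30 after it (chr2:215312076-215312105, plus strand). The site of PAICS lies 41 bases after its start (chr4:56435772-56435801, plus strand) and is the same site as the one 182 bases before the start of PPAT. That of DHODH lies 159 bases before the start (chr16:72008573-72008602, plus strand), that of DCTPP1 9 bases before (chr16:30429792-30429821, minus strand) and that of DCK 116 bases before (chr4:70993521-70993550, plus strand).
ATIC before the start: gggccggcgggcCACGTGataagcccggaa
ATIC after the start: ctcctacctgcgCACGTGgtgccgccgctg
PAICS and PPAT: ctggaaagctgtatttgctgCACGTGgaaa
DHODH: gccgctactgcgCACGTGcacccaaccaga
DCTPP1: ggagggttcctcCACGTGgtcgggaagcgg
DCK: cgccccggccttCACGTGacctggcgtgcg

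The letters TTTGGCG or TTTCCCG, on either strand, resemble the sites that E2F factors bind in promoters of S phase genes. They were found for 9 of 28 genes (32.1%), against 7.30% of genes with a window and 12.8% of the protein-coding genes with a mean of at least 1000. Of the 9 genes 3 fell (GART, DTYMK and PRPS2), 3 rose (GMPS, TYMS and DCK) and 3 were not called (HPRT1, UMPS and DUT). Among all genes with a mean of at least 1000, where these 9 lie, 34.7% fell and 26.2% rose. The split is near these shares and is no result about these letters, whose link to the direction of change was not tested. The matches of DCK and HPRT1 lie after the start, at 23 and 44 bases. A pair of thymidylate genes that moved in opposite directions is shown with the match in capitals, here as its complement: TYMS, 38 bases before the start (chr18:657604-657633, plus strand), and DTYMK, 66 bases before the start (chr2:241686863-241686892, minus strand).
TYMS: cgggacggccgCGGGAAAaggcgcgcggaa
DTYMK: ttggccgaggcCGGGAAAtactagctaatc
These matches describe letters in a window and no binding was measured.

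The suppliers of the pathway were followed with lists of other genes. Folate enzymes deliver the one-carbon units that GART, ATIC and TYMS use. Of 12 tested, 7 fell (58.3%) and 1 rose, with a median log2 fold change of -0.30, where 20.8% of all genes tested and 34.7% of those with a mean of at least 1000 fell. MTHFD2, the mitochondrial folate dehydrogenase, fell from 12054 and 12206 normalized counts to 7867 and 8127 (-0.60, SE 0.039, limma adjusted p = 3.0e-13). SHMT2, which takes the carbon unit from serine, fell by 0.54, the folate carrier SLC19A1 by 0.60 and the mitochondrial formate-producing MTHFD1L by 0.39 on the log2 scale. GGH, a folate hydrolase named here after its value was seen, was the one that rose (0.24, limma adjusted p = 0.019), and its call was lost with any single library left out. Of 10 tested genes of PRPP and ribose supply 4 fell, with a median of -0.06. This share is near the 34.7% of genes with a mean of at least 1000 and is no result about the list. The transketolase TKT went from 11220 and 11261 to 8851 and 8489 (-0.37, limma adjusted p = 5.6e-09), and PGD (-0.15), RPE (-0.23) and RPIA (-0.18), also enzymes of the pentose phosphate pathway, were the other calls. Without shcontrol replicate 2 the count that fell was 1, and without shBDH1 replicate 2 it was 2.

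Of 8 tested nucleoside and nucleotide carriers 3 fell, with a median of -0.14. Their share of 37.5% is likewise near that of genes with a mean of at least 1000 (34.7%), though SLC29A2, SLC29A3 and SLC28A2 lie below that mean. Over all genes tested 20.8% fell. With 8 genes the share is no result about the list. SLC29A1, the main equilibrative nucleoside transporter, went from 5277 and 5176 normalized counts to 3696 and 3625 (-0.51, SE 0.049, limma adjusted p = 8.9e-10). SLC29A3, its lysosomal relative, was at -0.48 and the mitochondrial pyrimidine nucleotide carrier SLC25A36 at -0.14.

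Other purine enzymes, those of breakdown, salvage and interconversion, went both ways: of 23 tested 11 rose (47.8%) and 6 fell (26.1%), with a median of 0.01. Over all genes tested 20.3% rose and 20.8% fell, and of those with a mean of at least 1000, 26.2% and 34.7%. The list mixes high and low genes. AK5, LACC1, NT5E, GMPR and PRTFDC1, named after their values were seen, rose from low shcontrol means of 4.1, 24.1, 42.5, 64.0 and 111 normalized counts. PNP, the purine nucleoside phosphorylase whose loss harms T cells, rose from 2108 and 2182 normalized counts to 3068 and 3438 (0.60, SE 0.062, limma adjusted p = 4.9e-09). ADA2, a secreted adenosine deaminase, rose by 0.74 and AMPD3, an AMP deaminase, by 0.55. The count of 11 that rose was 7 without shBDH1 replicate 1. Of 19 other pyrimidine and deoxynucleotide enzymes 4 fell (21.1%) and 2 rose (10.5%), with a median of -0.06. The lower share is near the 20.8% over all genes tested, and the 31.6% called in either direction is below the overall 41.1%. NT5C3A, a pyrimidine nucleotidase, fell by 0.42, the mitochondrial nucleoside diphosphate kinase NME4 by 0.26 and UCKL1, a relative of UCK2, by 0.20, while CMPK2, the mitochondrial UMP-CMP kinase, rose by 0.37. The uridine phosphorylase UPP1, named after its value was seen, also rose (0.56). The 4 that fell were 2 without shcontrol replicate 2. Of the 2 that rose, 1 call was lost without shcontrol replicate 2 or shBDH1 replicate 1, and both were lost without shBDH1 replicate 2.

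**Figure D4:**
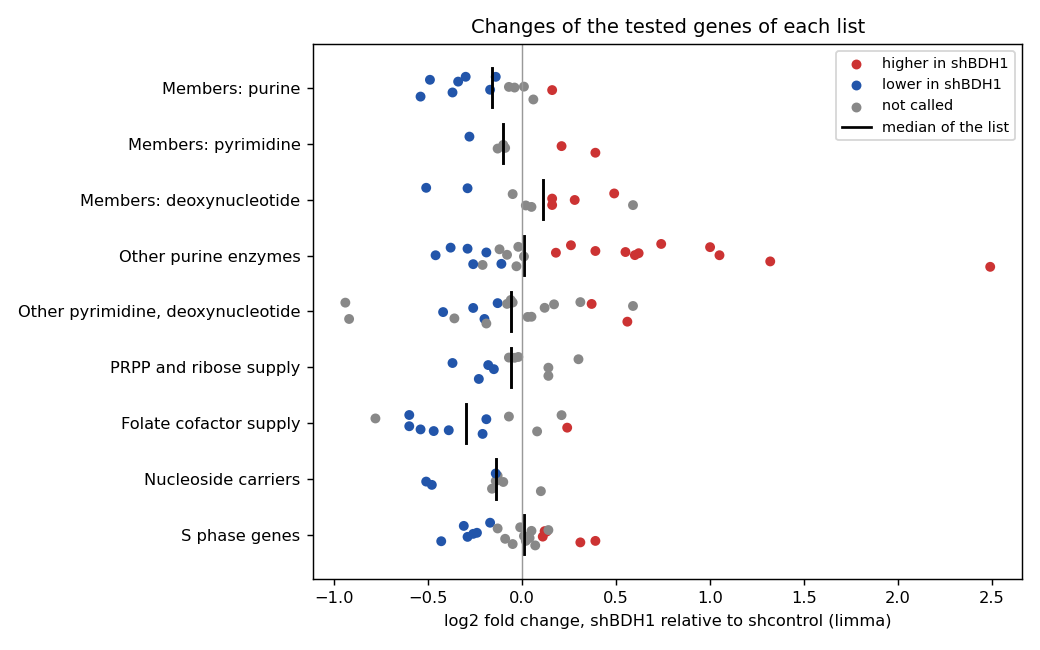
Log2 fold change, shBDH1 relative to shcontrol (horizontal axis), of every tested gene of each list, with points spread vertically only for legibility; red passed the test as higher, blue as lower, grey was not called, and the black bar is the median of the list. The folate list has its median at -0.30, the purine members at -0.16 and the deoxynucleotide members at 0.11.

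Some values carry reads that may belong to other genes. Of the genes that fell, GART shares 275 exonic bases with SON on the opposite strand, which had a log2 fold change of 0.25, and IMPDH2 shares 93 with AC137630.3 (-0.36), whose level was 10.2% of that of IMPDH2. NT5C2 shares 1892 exonic bases with CNNM2 (-0.18), DUT 533 with AC023355.1 (-0.29), PPAT 121 with AC068620.2 (-0.20) and RRM1 63 with RRM1-AS1 (-0.10). Annotated pseudogene copies named after a member had little signal: PRPS1P2 reached 1.43% of the level of PRPS1, IMPDH1P8 0.960% of that of IMPDH1, and the others less.

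In the genome (hg38, GENCODE 29) the genes that changed most are scattered. PFAS lies on chromosome 17 from 8247618 to 8270491, IMPDH2 on chromosome 3 from 49024325 to 49029408, DTYMK on chromosome 2 from 241675742 to 241686991, ATIC on chromosome 2 from 215311817 to 215349773, UCK2 on chromosome 1 from 165827531 to 165911618 and RRM2B on chromosome 8 from 102204502 to 102239118. The values are counts over whole genes, so they do not separate exons, introns or transcripts of a gene.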

How the data were processed

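The deposited table gives a normalized signal per gene and library. Its values are reads divided by a size factor, as the values themselves show: all of them (100.0% in each library) were whole multiples of 1 step within 0.01 reads, although the table calls them raw. The recovered size factors were 0.9739 and 0.9785 (shcontrol) and 1.0174 and 0.9944 (shBDH1). Per the submitters' processing notes, FastQC 0.11.9, HISAT2 2.2.1 and hg38 were used. The sources used here do not name the counter, annotation or strand setting.

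Genes with a mean of at least 10 were tested with limma 3.58.1 on log2(value + 1), its variance prior following mean level (residual degrees of freedom 2, prior 25.8), a two-sided test and Benjamini-Hochberg adjustment. Fold changes on this scale understate the change of low genes. edgeR 4.0.16, DESeq2 1.42.0 and limma-voom on recovered reads, other scalings, filters and pseudocounts, a replicate block and leaving out each library were the alternatives. In reads simulated for this comparison (19032 genes tested), limma found 27 of 50 genes changed 1.25-fold and 44 of 50 changed 1.5-fold. Few genes were changed in the simulation, while 41.1% were called in the data, so these rates may not carry over. Members, lists and pairs were chosen with earlier results of these data known. All members are named, and of each other list up to 4 called genes with the smallest p (some are not reported here), beside marker genes and single calls named after their values were seen. Positions and exons are from GENCODE 29, which held 25010 of the 25122 gene IDs. The libraries of a group differed by more than sampling noise (chi-square per degree of freedom 3.72 and 5.13, against 46.15 to 49.23 between groups). R was 4.3.3, Python 3.11.15, numpy 2.4.6, pandas 2.3.3 and matplotlib 3.10.9.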

Additional observations from a re-analysis of the deposited data

How the results depend on the processing

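Over 14 alternatives, 14 of the 18 genes called kept their direction and call, and IMPDH1, DCK, GMPS and TK1 kept their direction but lost the call in at least 1. IMPDH1 also lost it with DESeq2 (adjusted p = 0.081), with edgeR at upper-quartile factors (0.096) or library totals (0.052), and without a filter (0.091). DCK lost it with DESeq2 (adjusted p = 0.076) and without a filter (0.088). Genes without a call changed sign around 0: PPAT was at 0.00 with upper-quartile factors, and with each library left out ADSS ran from -0.01 to 0.03, HPRT1 from -0.00 to 0.13 and PRPS1 from -0.01 to 0.04. SAMHD1 was not tested at a minimum mean of 50. With upper-quartile factors, other pyrimidine and deoxynucleotide enzymes had 2 lower, ribose supply 1 higher and folate supply 2 higher. With DESeq2 the other pyrimidine and deoxynucleotide enzymes had 1 higher.

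With each library left out in turn, purine genes higher numbered 0 to 1, pyrimidine genes lower 1 to 2, deoxynucleotide genes higher 2 to 4, other purine enzymes higher 7 to 10, other pyrimidine and deoxynucleotide enzymes higher 0 to 2 and lower 2 to 3, ribose supply lower 1 to 4 and folate supply higher 0 to 0. Leaving out a library leaves 1 sample in its group, whose spread is then assumed to be that of the other group. With the replicate block, 7 members were higher and 11 lower, and 4108 and 4217 of all genes; same-numbered libraries shared only a number (correlation of their deviations 0.04).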
